A study of Mus musculus with 3 samples.

Results

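The cell cycle genes described here were 45 named genes of the G1 phase, DNA replication, G2 and mitosis, together with inhibitors of the cyclin-dependent kinases (Cdks), among 34797 genes on the array. A gene was taken as a member if a probe on the array carried its symbol, and all 45 had at least 1 probe, with 66 probes in total. They fell into 10 G1 cyclins, Cdks and E2f factors, 3 Cdk inhibitors, 14 replication genes and 18 genes of G2 and mitosis. Expression was measured on 1-colour Agilent arrays in the posterior frontal suture of C57BL/6 mice, the midline joint between the frontal bones of the skull, which closes soon after birth in the mouse. The groups were Runx2+/- mice at postnatal day 7, with 1 functional copy of the gene for the osteoblast transcription factor Runx2, wild-type (Runx2+/+) mice at day 7 and wild-type mice at day 5, abbreviated below as P7 and P5. Each group has 1 array, and the labels do not give the number of mice behind it. No difference below therefore has a replicate check or a p-value, and each one compares 2 hybridised samples.

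A dividing cell passes from G1 through DNA synthesis (S phase) and G2 into mitosis, and each step is driven by a Cdk bound to a cyclin. D-type cyclins with Cdk4 or Cdk6 and E-type cyclins with Cdk2 phosphorylate the retinoblastoma protein and release E2f factors, which transcribe replication genes. Genes of G2 and mitosis are transcribed later, through MuvB complexes with B-Myb and Foxm1, and Cdk inhibitors such as p21 and p27 hold cells in G1. In cranial sutures, dividing mesenchymal progenitors lie between the bone fronts, and osteoblasts leave the cycle as they mature.

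The sequences below show matches to the letters of promoter elements through which replication and mitotic genes are known to be timed. Whether the matches printed are the sites that time these members was not tested. Start-site windows of RefSeq genes (assembly GRCm38.p6), from 250 bases before to 50 bases after the start, were given for 37 of the 45 members, as 42 windows. The cell cycle homology region, searched as TTTGAA on both strands, was found in 11 of 15 windows of the G2 and mitosis genes (73.3%), against 17.9% of all 32851 windows. It was found in 2 of 13 windows of replication genes and 1 of 9 windows of G1 genes. Stretches of 30 bases around it, 5′ to 3′ on the gene's strand and with the element in capitals, read as follows for 8 mitotic members. TTCAAA is the same element read from the other strand.
Mki67 (chr7:135716460-135716489, - strand): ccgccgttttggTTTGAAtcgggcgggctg
Top2a (chr11:99024195-99024224, - strand): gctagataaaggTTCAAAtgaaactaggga
Ccnb2 (chr9:70421533-70421562, - strand): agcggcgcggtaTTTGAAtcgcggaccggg
Cdk1 (chr10:69352910-69352939, - strand): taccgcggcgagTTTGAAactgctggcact
Cdc20 (chr4:118437344-118437373, - strand): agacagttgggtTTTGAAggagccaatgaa
Aurka (chr2:172370521-172370550, - strand): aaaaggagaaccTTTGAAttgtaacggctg
Plk1 (chr7:122159453-122159482, + strand): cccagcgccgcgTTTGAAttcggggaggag
Ube2c (chr2:164769888-164769917, + strand): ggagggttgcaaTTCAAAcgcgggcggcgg

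The E2f element, searched as TTTGGCGC or TTTCCCGC on both strands, was found in 6 of 13 windows of replication genes (46.2%), against 1.56% of all windows, in 2 of 9 windows of G1 genes (Cdk2 and E2f2, 22.2%) and in 0 of 15 windows of G2 and mitosis genes. The replication windows with it belonged to Cdc6, Cdt1, Mcm3, Mcm5, Mcm6 and Mcm7. The same layout is used for 5 of these genes, with the element in capitals. GCGCCAAA and GCGGGAAA are its forms on the other strand.
Mcm3 (chr1:20820275-20820304, - strand): aaacttccgtgGCGGGAAAacttgggaagt
Mcm5 (chr8:75109349-75109378, + strand): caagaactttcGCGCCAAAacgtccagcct
Mcm6 (chr1:128359734-128359763, - strand): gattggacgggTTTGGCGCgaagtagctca
Mcm7 (chr5:138172030-138172059, - strand): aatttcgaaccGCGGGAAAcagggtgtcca
Cdt1 (chr8:122568035-122568064, + strand): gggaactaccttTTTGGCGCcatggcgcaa

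A further pair of elements did not separate these groups in the same way. The CCAAT box was found in 13 of 15 G2 and mitosis windows and 10 of 13 replication windows, against 37.4% of all windows. The GC box, GGGCGG, was found in 13 of 15 and 10 of 13 of them, against 35.7%. A match gives the letters of a window and does not show that a factor binds there.

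The 3 arrays differed in brightness, which bears on every value below. In intensity units, the 75th percentile of a probe's processed signal was 124.3 in Runx2+/-, 22.8 in P7 wild type and 52.1 in P5 wild type. Of 55680 probes, 47.3% were clearly above background in Runx2+/-, 29.2% in P7 wild type and 40.1% in P5 wild type, and the feature extraction software set its evaluation flag for that of P7 wild type. Levels are given as the log2 signal minus the array's 75th percentile, so 0 is the 75th percentile of all probes on that array. The brightest Runx2 probe stood at 1.08 in Runx2+/-, 1.46 in P7 wild type and 2.38 in P5 wild type. Which part of the gene the mutant allele lacks is not given in the labels, so this is no check of the genotype. Osteoblast markers were well above background on every array (8 of 8 genes). Their summed level was 1577 in Runx2+/-, 6260 in P7 wild type and 4096 in P5 wild type, in multiples of the 75th percentile. Col1a2 weighs most in these sums. All 8 genes were lower in Runx2+/- than in P7 wild type. With age in wild type, 7 were higher at P7 and Spp1 was lower (log2 difference -0.84).

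Most members were detected. On all 3 arrays 32 of 45 were well above background (71.1%, against 36.8% of all genes), and 41 were so on at least 1 array (91.1%, against 57.3% of genes). By array, 41 members were detected in Runx2+/-, 32 in P7 wild type and 39 in P5 wild type. Cdk6, Ccne2, Aurkb and Ttk were well above background on 0 of the 3 arrays. Gmnn, which encodes the replication licensing inhibitor geminin, and Tyms, which encodes thymidylate synthase, were so in Runx2+/- only. A further 7 members, Cdk2, Cdc6, Cdc45, Bub1, Bub1b, Kif11 and Foxm1, were detected in Runx2+/- and P5 wild type and not in P7 wild type, where the lowest signal of any detected probe was highest (-0.78, against -3.25 in Runx2+/- and -2.12 in P5 wild type).

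**Figure D1:**
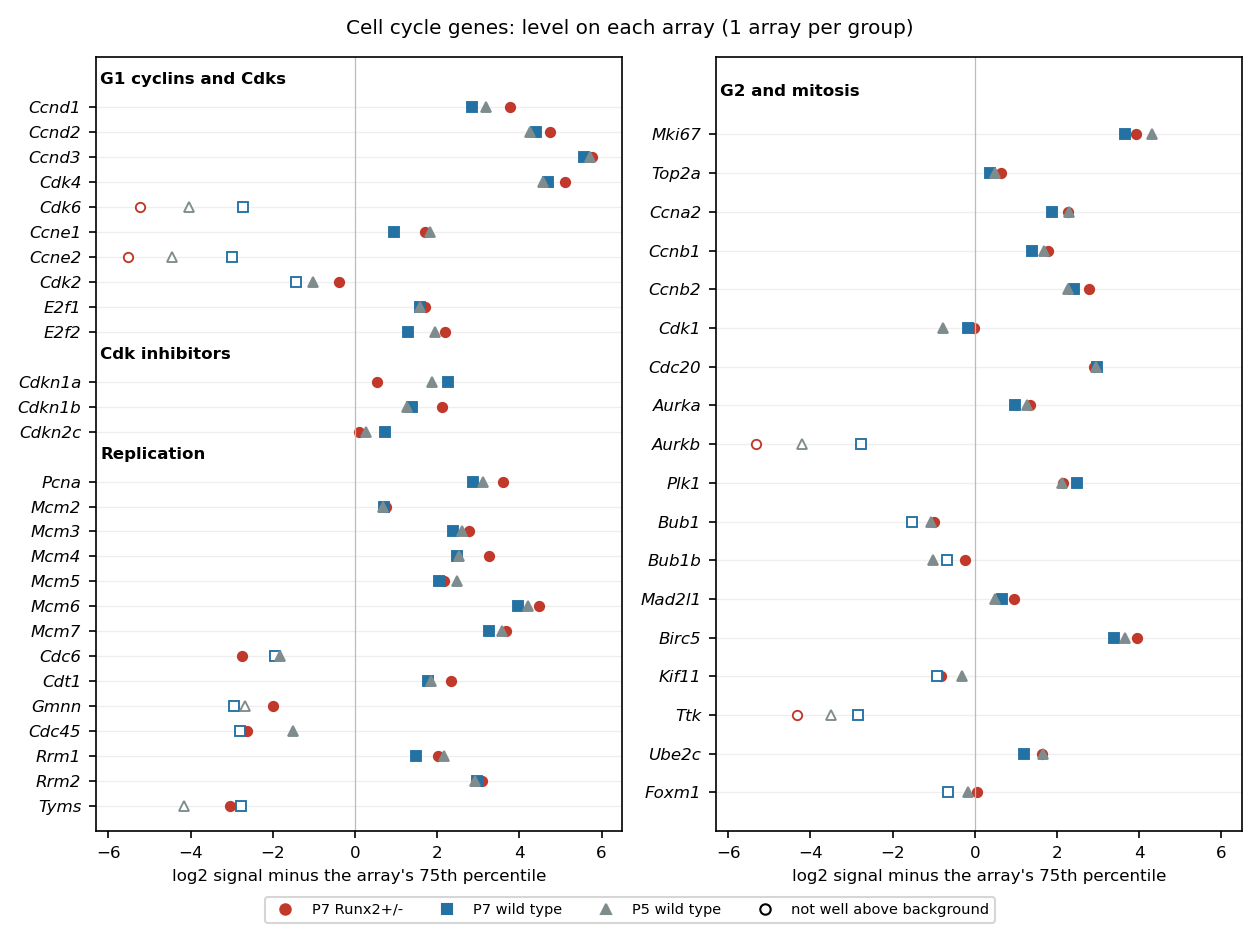
Level of each of the 45 members on the 3 arrays, as log2 signal minus the array's 75th percentile (horizontal axis), by role. Filled symbols are probes well above background and open symbols are not; the Runx2+/- symbol of Cdkn1a (0.54) lies left of both wild-type symbols, and Cdk6, Ccne2, Aurkb and Ttk are open on every array.

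At P7, most members were somewhat higher in Runx2+/- than on the wild-type array, and Cdkn1a, the gene for the Cdk inhibitor p21, was lower. Of 35 members with an order between these arrays, 31 were higher and 4 were lower (Cdkn1a, Cdkn2c, Cdc20 and Plk1). The median log2 difference was 0.39 over the members, against 0.13 over all 14364 genes with an order, and 88.6% of the members lay above 0, against 58.8% of genes. The differences were small: 0 members were at least 2-fold higher, against 5.2% of all genes, and 1 was at least 2-fold lower (Cdkn1a), against 13.8% of all genes. A gene counted here if it was well above background on both arrays, or on the higher array alone, in which case its difference is a lower bound (3 members). Among members measured on both arrays the median was 0.38, against 0.10 over all such genes. Repeated spots of 1 probe gave a technical SD of 0.20 for such a difference, and different probes of 1 gene disagreed by 0.57. Most single differences below are smaller than that second value.

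**Figure D2:**
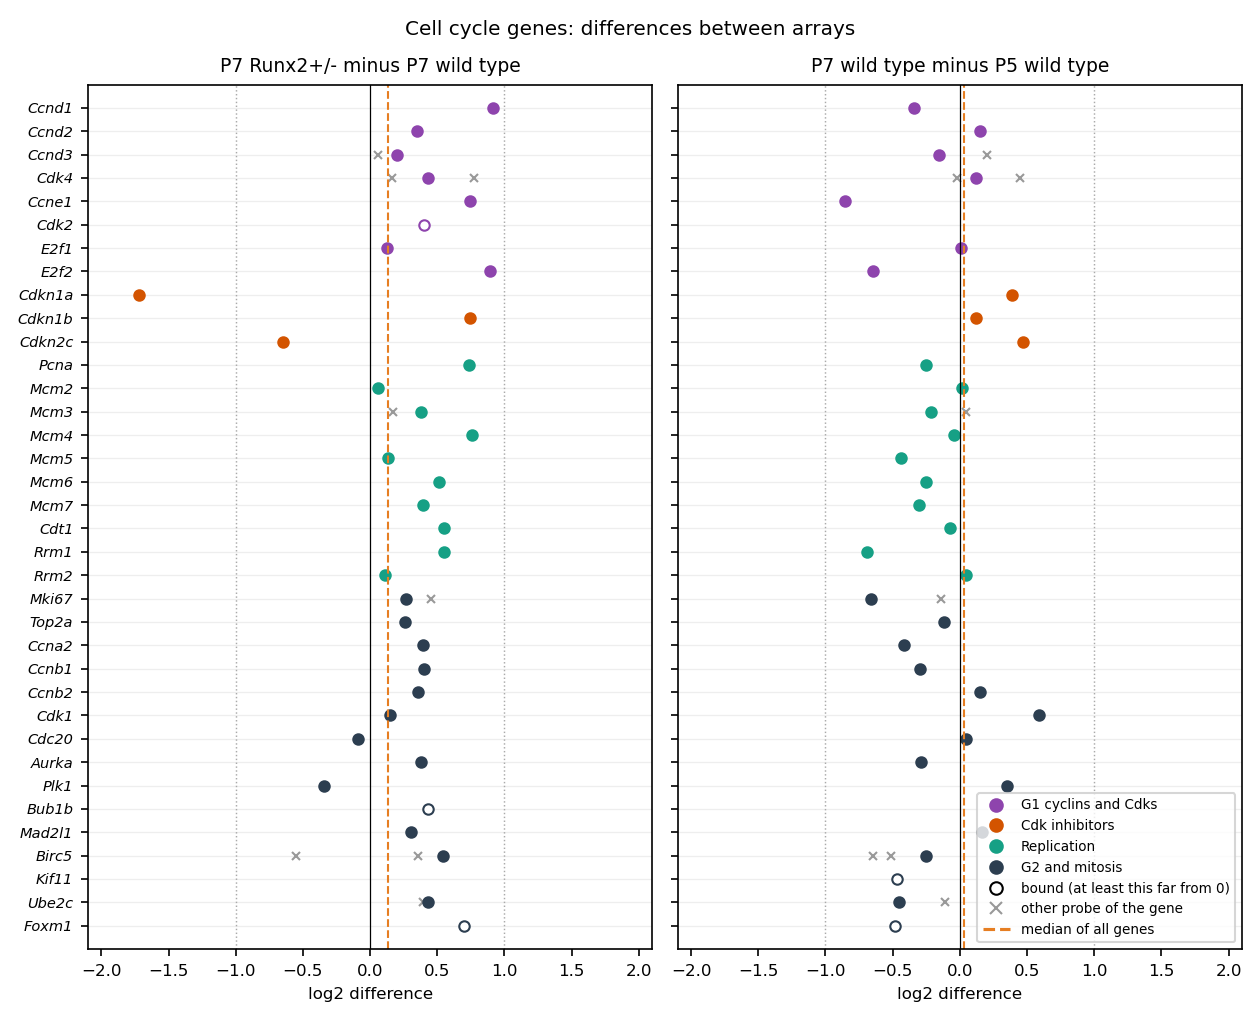
Log2 difference of each member (filled points measured on both arrays, open points bounds, crosses other probes of the gene), P7 Runx2+/- minus P7 wild type on the left and P7 wild type minus P5 wild type on the right. Dotted lines mark 2-fold and the dashed line the median of all genes (0.13 on the left, 0.03 on the right); only Cdkn1a passes 2-fold, on the left.

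Of the 10 G1 genes, 8 had an order between the P7 arrays, and all 8 were higher in Runx2+/-, with a median log2 difference of 0.42. Ccnd1, which encodes the mitogen-induced cyclin D1, stood at 3.77 in Runx2+/-, against 2.86 in P7 wild type and 3.20 in P5 wild type. E2f2, an activating E2f factor, stood at 2.20 in Runx2+/-, 1.3 in P7 wild type and 1.95 in P5 wild type. Ccne1, the cyclin E1 gene, stood at 1.70, 0.96 and 1.81 in Runx2+/-, P7 wild type and P5 wild type. All of these were lowest in P7 wild type, and they were 1.88-fold, 1.86-fold and 1.68-fold higher in Runx2+/- than in P7 wild type. The Ccnd1 probe lies on chromosome 7 at 152116202 to 152116261 (mm9, minus strand), and its difference was larger than that of 93.1% of genes.

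The other G1 members differed less. Cdk4, the kinase partner of D-type cyclins, stood at 5.12 in Runx2+/-, 4.69 in P7 wild type and 4.56 in P5 wild type. Ccnd2, the gene for cyclin D2, stood at 4.75, 4.40 and 4.25 on the same arrays. Both were highest in Runx2+/-, 1.35-fold and 1.27-fold above P7 wild type. Ccnd3, for cyclin D3, stood at 5.78 in Runx2+/-, against 5.57 in P7 wild type and 5.73 in P5 wild type. E2f1, the founding E2f factor, stood at 1.71 in Runx2+/- and at 1.58 on each wild-type array. These differences between the P7 arrays, 0.20 and 0.13, were about the size of the technical SD or below it. Cdk2, the partner of E- and A-type cyclins, was at -0.38 in Runx2+/- and -1.02 in P5 wild type, and at least 1.32-fold above the P7 wild-type array, where it was not well above background.

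Among the 3 Cdk inhibitors, Cdkn1a and Cdkn2c were lower and Cdkn1b was higher in Runx2+/-. Cdkn1a, whose p21 protein is induced by p53 and restrains Cdk2, stood at 0.54 in Runx2+/-, against 2.26 in P7 wild type and 1.87 in P5 wild type. Its level was lowest in Runx2+/-, 3.3-fold below the P7 wild-type level (log2 difference -1.72), and 6.17% of genes were lower still in that comparison. Before scaling, its signal was 180 intensity units in Runx2+/-, 109 in P7 wild type and 190 in P5 wild type. The unscaled signal was thus higher in Runx2+/- than in P7 wild type, and the lower level is relative to the other probes of that array.

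The Cdkn1a probe is printed 10 times on each array. On the Runx2+/- array its 8 spots that were not outliers ran from 0.43 to 0.60 with a median of 0.54. On the P7 wild-type array the 10 spots ran from 2.09 to 2.35 with a median of 2.28, and in P5 wild type from 1.78 to 2.05 with a median of 1.86. No spot of one array overlapped those of another, which covers the error of the spots and not that between mice. The probe lies on chromosome 17 at 29237377 to 29237436 (mm9, plus strand). The 2 other Cdkn1a probes, at 29235299 to 29235358 and 29227986 to 29228045, were well above background on 0 of the 3 arrays, so the difference rests on 1 probe. In contrast, the spots of the Bub1 probe spread widely in P7 wild type (SD 0.68, with 1 of 9 spots well above background), against an SD of 0.11 in Runx2+/- and 0.19 in P5 wild type.

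**Figure D3:**
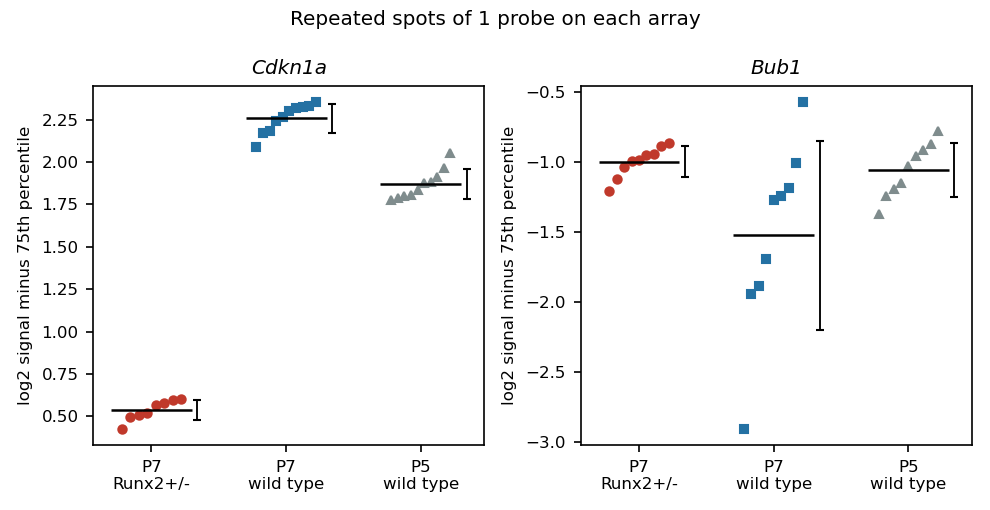
Log2 level of every retained spot of the Cdkn1a probe (left) and the Bub1 probe (right) on the 3 arrays, sorted within each array, with the mean (bar) and SD over spots (whisker). The Cdkn1a spots of the Runx2+/- array lie between 0.43 and 0.60 and do not overlap those of either wild-type array; the Bub1 spots of the P7 wild-type array run from -2.90 to -0.57.

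The Cdkn1a promoter is shown because this gene alone passed 2-fold at P7. RefSeq gives it several starts. Upstream of a distal start lies the p53 element known for p21, whose arms CATGTC and GACATG, 2 bases apart, are in capitals with those bases.
Cdkn1a (chr17:29090923-29090952, + strand): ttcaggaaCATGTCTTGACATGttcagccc

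That spacing and those letters occur in 4 of all 32851 windows (0.0122%), and they were chosen from this known element, so its presence here is no finding. The 250 bases before another start hold 2 GC boxes, the element of Sp1-family factors, shown in capitals.
Cdkn1a (chr17:29093519-29093768, + strand): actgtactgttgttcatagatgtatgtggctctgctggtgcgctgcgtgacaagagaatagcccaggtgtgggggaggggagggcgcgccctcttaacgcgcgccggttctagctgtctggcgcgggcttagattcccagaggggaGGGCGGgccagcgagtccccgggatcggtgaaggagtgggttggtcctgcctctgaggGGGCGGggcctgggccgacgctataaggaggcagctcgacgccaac

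Cdkn2c, which encodes the Cdk4 and Cdk6 inhibitor p18, stood at 0.09 in Runx2+/-, 0.74 in P7 wild type and 0.26 in P5 wild type. It was 1.56-fold lower in Runx2+/- than at P7 in wild type, and close to the P5 level. Cdkn1b, for p27, an inhibitor of Cdk2 complexes, stood at 2.12 in Runx2+/-, 1.38 in P7 wild type and 1.26 in P5 wild type, 1.67-fold above P7 wild type. The inhibitors thus did not move in 1 direction.

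All 10 replication genes with an order were higher in Runx2+/- than in P7 wild type, with a median log2 difference of 0.45 and a range of 0.06 to 0.76. Pcna, the sliding clamp of DNA polymerases, stood at 3.61 in Runx2+/-, 2.87 in P7 wild type and 3.12 in P5 wild type. Mcm4, a subunit of the Mcm2-7 replicative helicase, stood at 3.26 in Runx2+/-, against 2.49 in P7 wild type and 2.54 in P5 wild type. Both were highest in Runx2+/-, 1.67-fold and 1.70-fold above P7 wild type.

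The helicase subunits did not differ by the same amount. Mcm6 stood at 4.48 in Runx2+/-, 3.97 in P7 wild type and 4.22 in P5 wild type. Mcm7 stood at 3.66, 3.27 and 3.58 on these arrays in that order, and Mcm3 at 2.77, 2.38 and 2.60. These 3 were 1.43-fold, 1.31-fold and 1.3-fold above P7 wild type, with the P5 level between. Mcm5 stood at 2.17 in Runx2+/-, 2.04 in P7 wild type and 2.48 in P5 wild type, and Mcm2 at 0.76, 0.70 and 0.68. Differences between the P7 arrays of 0.13 for Mcm5 and 0.06 for Mcm2 were within the technical SD.

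Cdt1, which loads the helicase at origins, stood at 2.33 in Runx2+/-, 1.78 in P7 wild type and 1.85 in P5 wild type, 1.46-fold above P7 wild type. Rrm1, the large subunit of ribonucleotide reductase, stood at 2.03 in Runx2+/-, 1.48 in P7 wild type and 2.17 in P5 wild type. Its partner subunit gene Rrm2 stood at 3.09, 2.97 and 2.93. Rrm1 was 1.47-fold higher in Runx2+/- than in P7 wild type, and Rrm2 differed by 0.11, which is within the technical SD. The members Cdc6 and Cdc45, which act in origin licensing and helicase activation, had no order at P7. Cdc6 was at -2.74 in Runx2+/- and -1.81 in P5 wild type, and Cdc45 at -2.62 in Runx2+/- and -1.51 in P5 wild type. On the Runx2+/- array Gmnn was at -1.98 and Tyms at -3.03, the last near the lowest detected signal of that array (-3.25).

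Of 14 G2 and mitosis genes with an order, 12 were higher in Runx2+/- than in P7 wild type, with a median log2 difference of 0.37. Mki67, the gene for the proliferation antigen Ki-67, stood at 3.93 in Runx2+/-, 3.66 in P7 wild type and 4.32 in P5 wild type. Its other probe stood at 3.91, 3.45 and 3.59 on these arrays. Both probes were lowest in P7 wild type, but they disagreed on whether the Runx2+/- or the P5 wild-type array was highest. Top2a, which encodes topoisomerase II alpha, differed by 0.26 (0.63 in Runx2+/-, 0.37 in P7 wild type and 0.49 in P5 wild type).

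The mitotic cyclin genes were modestly higher. Ccna2, for cyclin A2, stood at 2.27 in Runx2+/-, 1.87 in P7 wild type and 2.29 in P5 wild type. Ccnb1, for cyclin B1, stood at 1.78, 1.38 and 1.68 in the same order of arrays. Ccnb2, for cyclin B2, stood at 2.77 in Runx2+/-, 2.41 in P7 wild type and 2.26 in P5 wild type. They were 1.32-fold, 1.32-fold and 1.28-fold above P7 wild type, while their kinase, Cdk1, differed between the P7 arrays by less than the technical SD (-0.03 in Runx2+/-, -0.18 in P7 wild type and -0.76 in P5 wild type).

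Birc5, which encodes survivin of the chromosomal passenger complex, stood at 3.94 in Runx2+/-, 3.39 in P7 wild type and 3.64 in P5 wild type. Another Birc5 probe stood at 0.33 in Runx2+/-, 0.88 in P7 wild type and 1.39 in P5 wild type, so its probes disagreed in direction at P7. Of 6 members with several probes measured on both P7 arrays, this gene alone had probes of opposite sign. The count was 3 of 6 for P7 minus P5 wild type (Ccnd3, Cdk4 and Mcm3) and 6 of 9 for Runx2+/- minus P5 wild type (Birc5, Ccnb1, Cdkn1b, Mad2l1, Mki67 and Ube2c). Ube2c, the ubiquitin-conjugating enzyme of the anaphase-promoting complex, stood at 1.63 in Runx2+/-, 1.2 in P7 wild type and 1.65 in P5 wild type. Aurka, a spindle kinase, stood at 1.35, 0.97 and 1.26, and Mad2l1, of the spindle checkpoint, at 0.96, 0.66 and 0.50. These were 1.35-fold, 1.3-fold and 1.23-fold above P7 wild type.

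Plk1 and Cdc20 went the other way. Plk1, the Polo-like kinase of mitotic entry, stood at 2.14 in Runx2+/-, 2.48 in P7 wild type and 2.13 in P5 wild type, 1.27-fold below P7 wild type. Cdc20, the activator of the anaphase-promoting complex, stood at 2.89, 2.98 and 2.94 on these arrays, a difference within the technical SD. Their promoters carry the same TTTGAA element, printed above, as those of Mki67, Ccnb2 and Ube2c. Foxm1, a transcription factor of this gene set, stood at 0.06 in Runx2+/- and -0.17 in P5 wild type, and was at least 1.63-fold above P7 wild type. Mybl2, which encodes B-Myb and is not a member, stood at 1.35 in Runx2+/-, 2.03 in P7 wild type and 1.92 in P5 wild type. It was 1.6-fold below P7 wild type. Bub1b, a checkpoint kinase, stood at -0.23 in Runx2+/- and -1.02 in P5 wild type, and was at least 1.35-fold above P7 wild type. Bub1, its relative, stood at -1.0 in Runx2+/- and -1.05 in P5 wild type, and Kif11, a spindle motor, at -0.83 in Runx2+/- and -0.31 in P5 wild type. Neither had an order at P7.

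**Figure D4:**
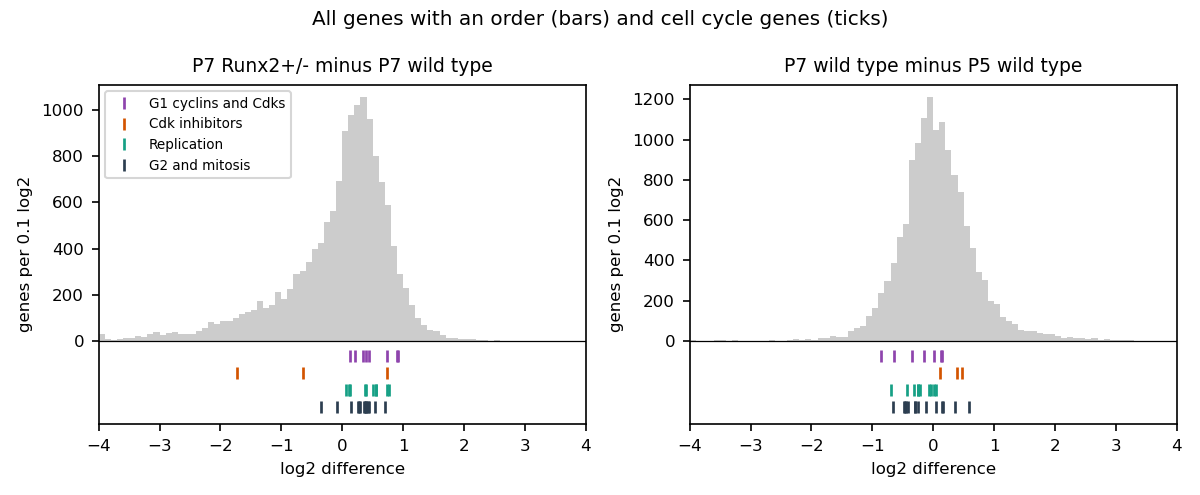
Distribution of log2 differences over all genes with an order (bars, genes per 0.1 log2 units) with the cell cycle genes as ticks by role, P7 Runx2+/- minus P7 wild type on the left and P7 wild type minus P5 wild type on the right. On the left the members cluster right of 0 (median 0.39, all genes 0.13) apart from Cdkn1a, Cdkn2c, Plk1 and Cdc20, which lie below 0; on the right their median is -0.18 (all genes 0.03).

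At P7 against P5 in wild type, replication and mitotic members leaned lower at P7. The 3 Cdk inhibitors among the members leaned higher. All of these differences were less than 2-fold. Of 34 members with an order, 13 were higher and 21 lower at P7 (38.2% above 0, against 52.0% of genes), with a median log2 difference of -0.18, against 0.03 over all 14281 genes with an order. At least 2-fold higher were 0 members, against 6.33% of all genes, and at least 2-fold lower were 0, against 3.28%. The P7 wild-type array enters this comparison and the genotype comparison with opposite signs, so the opposite medians are not separate evidence. The technical SD of a difference was 0.22 from repeated spots, and different probes of 1 gene disagreed by 0.46, which exceeds the group medians below. Of 10 replication genes, 8 were lower at P7, with a median of -0.23, led by Rrm1 (1.61-fold lower). Of 14 G2 and mitosis genes, 9 were lower, with a median of -0.27, led by Mki67 (1.58-fold lower), while Cdk1 was 1.5-fold higher. The Mki67 value depended on the probe, since its other probe differed by -0.14 on the log2 scale, against -0.66 for the one used. Foxm1 was at least 1.39-fold lower and Kif11 at least 1.38-fold lower at P7. Of 7 G1 genes, 4 were lower, with a median of -0.16 that turned to 0.00772 with the mean over probes. Ccne1 was 1.81-fold and E2f2 1.56-fold lower. The 3 inhibitors were higher at P7: Cdkn2c by 0.47, Cdkn1a by 0.39 and Cdkn1b by 0.12 on the log2 scale, the last within the technical SD, and Cdkn1a turned to -0.14 with normexp background correction and the 75th percentile.

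The Runx2+/- array was also set against the P5 wild-type array, which avoids the dim P7 wild-type array but differs in age as well as genotype. The members' median log2 difference was 0.14 over 40 members, against 0.11 over all 18061 genes with an order, with 28 higher and 12 lower (70.0% above 0, against 55.5% of genes). At least 2-fold higher were 0 members, against 8.67% of all genes, and at least 2-fold lower were 2, against 15.4%. Those were Cdkn1a (2.52-fold) and Cdc45 (2.16-fold). Before scaling, the dim Cdc45 signal was 20.2 intensity units in Runx2+/- and 18.3 in P5 wild type. The excess of members over all genes was thus 0.26 log2 units against P7 wild type and 0.03 against P5 wild type, and the lower Cdkn1a level was seen against both. The G1 group kept a median of 0.37, whereas replication genes had 0.14 and G2 and mitosis genes 0.10. The medians of the replication members and of the G2 and mitosis members were thus close to the all-gene median of 0.11 in this comparison. Under other scalings these member medians fell on either side of 0, with values given under the processing alternatives. The further gene lists described below did not all lie near 0.11. Other mitotic genes had a median of 0.28 over 46 genes with an order, with 76.1% above 0. Other G1/S regulators had 0.38 over 19 genes, and other Cdk inhibitors and arrest genes 0.34 over 14. Other replication genes had 0.09 over 36. These list medians were not tested under other scalings.

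Medians over further cell cycle genes outside the 45 were also above the all-gene 0.13 between the P7 arrays. They were 0.36 over 15 other G1/S regulators, 0.25 over 29 other replication genes and 0.37 over 37 other mitotic genes with an order. The other replication genes thus lay below the 0.45 of the replication members, with 72.4% of them above 0. Of all genes in this comparison, 5.2% were at least 2-fold higher and 13.8% at least 2-fold lower. Of the G1/S and replication genes, 0 were at least 2-fold apart in either direction. Among the mitotic genes, Smc2, a condensin subunit, was 2.02-fold higher in Runx2+/-, whereas Cdc27, a subunit of the anaphase-promoting complex, was 3.8-fold lower and Kif2c, a microtubule depolymerase, 3.14-fold lower. Cdc27 stood at 1.42 in Runx2+/-, 3.35 in P7 wild type and 3.48 in P5 wild type, and Kif2c at -1.94, -0.29 and -1.66. At these probes Cdc27 was low in Runx2+/- alone, and Kif2c high in P7 wild type alone. Another Cdc27 probe stood at 0.54 in Runx2+/-, 1.46 in P7 wild type and 2.17 in P5 wild type. It differed by -0.92 between the P7 arrays and by -0.72 with age. Kif2c was dim, and its P7 wild-type level lay near the lowest detected signal of that array (-0.78). The other Kif2c probe was well above background in P7 wild type alone (-0.21).

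The 12 other Cdk inhibitors and arrest genes with an order had a median of 0.31. Of these, 2 were at least 2-fold higher in Runx2+/- than in P7 wild type, against 5.2% of all genes. At least 2-fold lower was 1, against 13.8% of all genes. Trp53, the gene for p53, stood at -0.90 in Runx2+/-, 0.44 in P7 wild type and -0.48 in P5 wild type. Ccng1, for cyclin G1, a p53 target like Cdkn1a, stood at 1.60 in Runx2+/-, against -0.21 in P7 wild type and 0.52 in P5 wild type. Trp53 was 2.53-fold lower and Ccng1 3.51-fold higher than at P7 in wild type. Cdkn1a and Ccng1 thus differed in opposite directions, and a part of p53 in this was not tested. Both 2-fold differences depended on the background correction: Trp53 differed by -0.67 with normexp and the 75th percentile, and Ccng1 by 0.63 with normexp and the median of detected probes. Mdm2, the ubiquitin ligase for p53 and another of its targets, stood at 3.23 in Runx2+/-, 2.97 in P7 wild type and 2.48 in P5 wild type. Btg2, an antiproliferative p53 target, stood at 0.83, -0.42 and 0.40, and Cdkn1c, for the inhibitor p57, at 7.78, 7.72 and 7.51. Btg2 was 2.37-fold above P7 wild type, while Mdm2 and Cdkn1c differed by 0.26 and 0.06. Ccng1 and Btg2 were dim in P7 wild type, where the lowest detected signal was -0.78.

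At P7 against P5 in wild type, these lists had medians of -0.07 over 12 other G1/S regulators, -0.10 over 31 replication genes and -0.07 over 38 mitotic genes. The 11 other Cdk inhibitors and arrest genes had -0.24, with 4 higher and 7 lower, unlike the 3 member inhibitors. E2f5, a repressive E2f factor, was at least 3.56-fold higher at P7, and was not well above background at P5. Kif2c was 2.59-fold higher and Ndc80, of the kinetochore, at least 2.43-fold lower. E2f5 and Kif2c both stood at -0.29 in P7 wild type, near the lowest detected signal of that dim array (-0.78). No other gene of these lists was 2-fold apart with age. Of all genes, 6.33% were at least 2-fold higher and 3.28% at least 2-fold lower with age. Against P5 wild type, at least 2-fold higher in Runx2+/- (8.67% of all genes) were 2 G1/S regulators (E2f5 and E2f3) and 2 arrest genes (Wee1 and Ccng1). So were 1 replication gene (Pole2) and 1 mitotic gene (Espl1). At least 2-fold lower (15.4% of all genes) were 1 arrest gene (Cdkn2b), 2 replication genes (Cdc7 and Dbf4) and 3 mitotic genes (Cdc27, Ndc80 and Cep55). Cdc7 differed most (4.93-fold), and another E2f3 probe differed by -0.83.

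**Figure D5:**
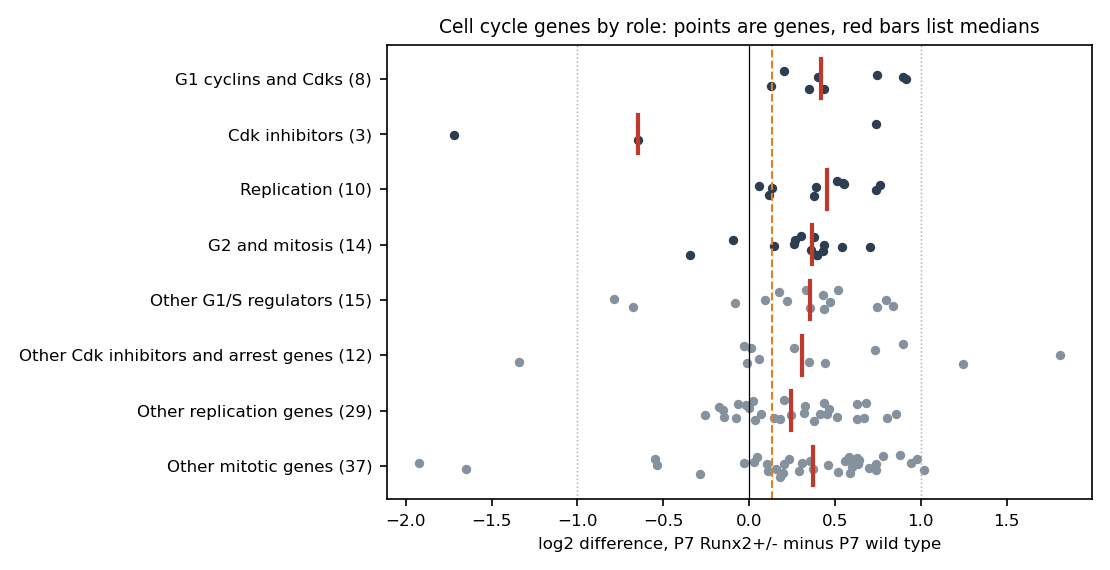
Log2 difference, P7 Runx2+/- minus P7 wild type, of each gene with an order, for the 4 member groups (dark points) and 4 lists of other cell cycle genes (grey points), with the number of genes in parentheses. Red bars are list medians, from -0.65 for the 3 Cdk inhibitors to 0.45 for replication genes; the dashed line is the median of all genes (0.13) and dotted lines mark 2-fold.

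Several measured properties moved with these differences, and their part in them was not tested. Split by brightness into 3 equal groups of genes measured on both P7 arrays, the all-gene medians were -0.08, 0.25 and 0.07 from dim to bright. The members' medians in the same groups were 0.14 (5 members), 0.40 (15) and 0.41 (12), and 4, 11 and 11 of them lay above the all-gene median. For P7 minus P5 wild type, the all-gene medians were 0.18, 0.08 and -0.03, and the members' medians 0.16 (5 members), -0.25 (16) and -0.25 (11), with 2, 4 and 4 above the all-gene median. Along transcripts with several probes, the difference was larger towards the 3′ end, by a median of 0.14 log2 units per kilobase for Runx2+/- minus P7 wild type, 0.17 in the wild-type age comparison and 0.35 for Runx2+/- minus P5 wild type, going by the probe positions in the files. Summed levels of markers of several other cell types differed between the samples as well. The summed level of 5 endothelial markers was 192 in Runx2+/-, 63.2 in P7 wild type and 76.9 in P5 wild type. That of 7 neutrophil markers was 348 in Runx2+/-, 72.6 in P7 wild type and 903 in P5 wild type, and that of 6 chondrocyte markers 33.4, 21.6 and 11.8, with 6, 3 and 5 of them detected. Egfl7 weighs most in the endothelial sums. Between the P7 arrays 4 endothelial genes were at least 2-fold higher in Runx2+/-, and Pecam1 differed by -0.15. With age, 2 endothelial genes were higher (Pecam1 by 0.42) and 3 lower. Of the chondrocyte genes, Acan alone was lower in Runx2+/- than in P7 wild type (-0.67). The 4 neural markers summed to 63.6 in Runx2+/-, 252 in P7 wild type and 278 in P5 wild type, sums in which Snap25 weighs most. By gene, 3 of these 4 (Stmn2, Tubb3 and Gap43) were at least 2-fold lower at P7 than at P5 in wild type, with a list median of -1.68, and Gap43 was 0.82 higher in Runx2+/- than in P7 wild type. The 6 B lineage markers summed to 15.2 in Runx2+/-, 9.33 in P7 wild type and 12.0 in P5 wild type, with 6, 4 and 6 detected. Cd79b weighs most in these sums, and the genes did not move together. Vpreb1, of B cell precursors, was 0.99 higher in Runx2+/- than in P7 wild type and differed by -1.87 between P7 and P5 wild type. Cd79a differed by -0.04 and 0.42 in these comparisons, and Ebf1 by 0.64 and 0.81. With age, 2 of these markers were higher and 2 lower, with a median of -0.01. The 6 erythroid markers summed to 234 in Runx2+/-, 336 in P7 wild type and 550 in P5 wild type, and the 3 of the meninges to 11.2, 14.5 and 56.6. With age, erythroid Slc4a1 (0.51) and meningeal Aldh1a2 (0.19) differed the other way. The 5 macrophage markers differed less by their sum, at 68.6, 66.2 and 57.7 on these arrays in that order. Among them, Cd68 differed by -1.10 and Lyz2 by 2.03 between the P7 arrays. The 4 muscle markers summed to 4.37, 4.48 and 7.12, with 3, 2 and 3 detected. All endothelial and neutrophil markers were detected on every array. The 4 genes of neutrophil precursors, which divide, summed to 6.70 in Runx2+/-, 7.26 in P7 wild type and 8.62 in P5 wild type, but they did not move together. Between the P7 arrays Elane differed by -1.13 and Mpo by 0.62, and Prtn3 and Ctsg were not well above background in P7 wild type. In bulk tissue, fewer dividing cells and less cell cycle RNA per cell cannot be told apart. Xist, expressed in females, stood at 0.117 times the 75th percentile in Runx2+/-, 3.84 in P7 wild type and 5.45 in P5 wild type, and the Y-linked Eif2s3y at 5.16, 0.133 and 0.787, so the samples also differed in these sex-linked transcripts.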

How the data were processed

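Per the labels' protocols, suture RNA was amplified with Cy3 labelling, and 1 array was hybridised for each group. The authors deposited background-corrected intensity values per spot, for which the file headers name Agilent Feature Extraction 10.7.1.1 and the submitters' processing notes 9.5.1.1. A deposited table of processed intensity values served as an alternative. Control and outlier spots were left out, spots of a probe were averaged as log2 of the deposited signal, and each array's 75th percentile was subtracted (numpy 2.4.6, pandas 2.3.3). The brightest probe stood for its gene. Differences are read only where the probe was well above background on both arrays, or on the higher one, which gives a bound against the lowest detected signal. At least 2-fold was counted. Alternatives used limma 3.58.1. The steps were tested on simulated arrays of equal brightness, with differences placed only in probes detected on all arrays. That test did not cover bounds or the brightness differences of the real arrays. All arrays lay on 1 slide. Probe coordinates are those of the files (mm9), and exons were not looked up. The 45 members, gene lists and motifs were chosen with earlier results of these data known. All members detected on at least 1 array are given with values; members at least 2-fold apart are given with all probes, and up to 4 such genes per further list are named. Mdm2, Cdkn1c, Mybl2 and the marker genes given were chosen after their values were seen. Precision is limited by the number of arrays.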

Additional observations from a re-analysis of the deposited data

How the results depend on the processing

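No paired analysis was possible because each group has 1 array. The members' median log2 difference between Runx2+/- and wild type at P7 lay between 0.21 and 1.08 over 11 alternatives, and that between P7 and P5 wild type between -0.47 and -0.08, so both kept their direction. Relative to the median of all genes, they lay 0.16 to 1.2 above and 0.15 to 0.65 below it. The outer values 1.08 and -0.47 came from normexp background correction (offset 50) with the 75th percentile. In that setting 18 of 34 members reached 2-fold higher in Runx2+/- at P7, against 4338 of 13666 genes. There 0 members reached 2-fold lower, against 522 genes. With age, 1 member was at least 2-fold lower at P7 than at P5, against 936 of 13758 genes. There Cdkn1a differed by -0.64 between the P7 arrays, with an all-gene median of 0.63, and by -0.14 with age, as did the inhibitors' median, and 89.3% of all 2-fold calls were higher for genotype (27.4% in the reported setting) and 3.31% for age (65.9%). Cdkn1a kept its direction between the P7 arrays in all 11 alternatives (-1.97 to -0.64). With normexp and the median of detected probes, 2 members were at least 2-fold higher for genotype, against 477 of 13108 genes. The splits were 18.7% and 35.3%. Without filter or floor, 1 and 5 members were at least 2-fold higher and lower for genotype, against 1725 and 16559 of 34797 genes. For age they were 4 and 1, against 13561 and 1456 genes. The splits were 9.43% and 90.3%. At 1.5-fold, 7 members were higher and 2 lower for genotype (2822 and 3021 of 14364 genes). For age, 1 was higher and 4 lower (2297 and 1620 of 14281 genes). Runx2+/- against P5 wild type was less stable: the members' median of 0.14 became 0.36 with normexp and the 75th percentile, -0.0575 with cyclic loess, -0.0599 with normexp and the median, -0.00426 with the median of detected probes and -0.00626 with their 75th percentile. The 2 members at least 2-fold lower there became 1 with quantile normalization or cyclic loess and 0 with normexp and the 75th percentile. Over all genes, 2418 of 18413, 2988 of 18691 and 702 of 17165 were that much lower in these settings. That count lay between 0 and 5 over 13 alternatives, which include other fold limits. The replication median turned to -0.00596 (quantile), -0.00635 (the authors' values), -0.0753 (cyclic loess), -0.0169 (median) and -0.0189 (75th percentile of detected probes), and the G2 and mitosis median to -0.108 (cyclic loess), -0.0433 (median), -0.0453 (75th percentile of detected probes) and -0.103 (normexp and the median). E2f2 turned to -0.0143 with cyclic loess, Mki67 to 0.15 with normexp and the 75th percentile and to 0.32 with its probe nearest the 3′ end, and the G1 median for age to 0.00772 with the mean over probes. Mki67 with age lay between -1.23 and -0.14, Trp53 between the P7 arrays between -1.53 and -0.67, and Ccng1 between 0.63 and 1.89, each in 1 direction. The cause was not tested. The alternatives on Runx2+/- against P5 wild type and on single genes and groups, the 75th percentile of detected probes, normexp with the median and the probe nearest the 3′ end were chosen after seeing the data. The P7 wild-type array, with the fewest probes above background, limits what can be read for dim members.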
